A study of Mus musculus with 12 samples.

Results

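Erythroid genes and a hemoglobin probe set were followed in primitive bone marrow cells 24 hours after transduction with NUP98-HOX fusion genes. The members were chosen by name: all probe sets of the array annotated to Gata1, Klf1, Nfe2, Car1, Car2, Alas2, Ermap or Tfrc, together with 1 probe set annotated to both adult alpha-globin genes (Hba-a1 and Hba-a2). This gave 9 gene entries of 12859 on the array and 14 probe sets of 22690, of which 3 were control probe sets for Tfrc and stood outside the fit, so that 11 of 22626 fitted probe sets were members. Because the members had been proposed with results of these arrays known, their differences are given as a description and carry no test.

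Marrow of adult hybrid mice was harvested 4 days after 150 mg/kg 5-fluorouracil and stimulated with interleukin-6, interleukin-3 and stem cell factor. It was then cocultured with irradiated GP+E86 virus producer cells and sorted for Sca-1+ Lin- GFP+ cells. The 4 groups of 3 arrays carried a retroviral vector for ND13 (NUP98-HOXD13), for NA10 (NUP98-HOXA10), for ND13(N51S), which is ND13 with an N51S mutation in its homeodomain, or for GFP only (the GFP control). All cells were thus drug-treated, cytokine-stimulated and virus-exposed, the vector drove the fusion in whatever cells it entered, and the sort removed cells with Ter-119, an antigen of maturing red cells. The comparison asked whether the fusions altered erythroid transcripts in these cells and whether ND13(N51S) did so too. In bulk RNA, fewer cells of a type and less RNA per cell cannot be told apart.

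In red cell formation, the transcription factors Gata1 and Klf1 (EKLF) bind the promoters and enhancers of the globin genes and of genes for heme synthesis and the red cell membrane, and NF-E2, of which Nfe2 is a subunit, binds the globin control regions. Adult hemoglobin is made of alpha chains (Hba-a1 and Hba-a2) and beta chains (such as Hbb-bs and Hbb-bt), with heme whose first step is made by Alas2. Tfrc, the transferrin receptor, brings in iron, Car1 and Car2 are carbonic anhydrases, and Ermap is a membrane protein of erythroid cells.

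The deposited values were MAS5 signals scaled to equal trimmed means. For each array, 27 bacterial control probe sets gave a background as the 95th percentile of their signals, which was 28.5 to 69.8. Array ND13(N51S) 2 had a Gapdh 3′ to 5′ signal ratio of 48.9, against 1.90 to 2.71 in the other 11 arrays, and its share in the results was not tested apart from leaving it out. A record deposited for GFP control 1 names GFP-negative cells from a culture with ND13(N51S), while its label names the GFP control, under which it was kept. Member differences from the GFP control that are printed here and changed sign without either array are also given without it. Arrays of the same number deviated together in all groups, so the number was fitted as a block in an alternative. Comparisons with the GFP control share its 3 arrays.

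Promoters of adult globin genes are shown because the largest member differences were those of alpha globin, and those of beta globin were found in another group. In the RefSeq table of GRCm38.p6, each window below holds the 250 bases before the gene start, 5′ to 3′ on the gene's strand. The windows are those of the reference genome and were not read from the hybrid mice. Capitals mark a GATA word (the letters GATA after A or T and before A or G) or a CACCC box (CCNCNCCC), each searched on both strands. The window of Hba-a1 was chr11:32283422-32283671, plus strand, that of Hbb-bs chr7:103827929-103828178, minus strand, and that of Hbb-bt chr7:103813924-103814173, minus strand.
Hba-a1: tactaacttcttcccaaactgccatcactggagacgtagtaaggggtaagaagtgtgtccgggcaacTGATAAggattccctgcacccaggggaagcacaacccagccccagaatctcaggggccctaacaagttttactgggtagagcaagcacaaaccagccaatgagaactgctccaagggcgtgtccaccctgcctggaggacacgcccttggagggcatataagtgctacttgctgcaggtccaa
Hbb-bs: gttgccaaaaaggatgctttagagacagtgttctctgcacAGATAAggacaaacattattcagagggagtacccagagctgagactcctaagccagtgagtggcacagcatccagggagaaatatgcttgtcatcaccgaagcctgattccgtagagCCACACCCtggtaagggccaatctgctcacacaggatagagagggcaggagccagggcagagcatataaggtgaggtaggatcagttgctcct
Hbb-bt: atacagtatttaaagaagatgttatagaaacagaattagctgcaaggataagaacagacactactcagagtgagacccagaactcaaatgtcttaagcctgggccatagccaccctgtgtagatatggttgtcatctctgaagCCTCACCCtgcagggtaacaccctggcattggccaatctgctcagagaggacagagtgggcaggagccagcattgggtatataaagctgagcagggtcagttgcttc
The window of Hba-a2 was the same as that of Hba-a1 when shifted by 3 bases, in 247 of 247 bases. Hbb-bs and Hbb-bt shared 127 of 249 bases. The alpha-globin window held 1 GATA word and no CACCC box, the Hbb-bs window 1 GATA word and 1 CACCC box, and the Hbb-bt window 1 CACCC box. Among the members with a window, Klf1, Alas2 and Ermap each held 1 GATA word, Gata1 held 3 CACCC boxes and no GATA word, Alas2 4 CACCC boxes, some overlapping, and the 2 windows of Tfrc 3 and 2. Such words stood in 26.5% (GATA) and 45.9% (CACCC box) of 32851 windows of this length, and the NF-E2 core TGAGTCA in 4.46% and in none of the windows described here.

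Alpha globin had its highest signals in ND13 cells. The member probe set, of a kind (suffix x) in which some probes may match other transcripts, had signals of 928, 378 and 691 in ND13, 123, 162 and 93.9 in NA10, 266, 187 and 203 in ND13(N51S) and 53.7, 156 and 83.4 in the GFP control. All 3 ND13 arrays lay above all arrays of the other 3 groups, the ND13(N51S) arrays lay above the GFP control arrays, and NA10 overlapped the GFP control. The group means were 665 ± 276 in ND13, 127 ± 34.3 in NA10, 218 ± 41.7 in ND13(N51S) and 97.7 ± 52.5 in the GFP control (SD, n = 3 each). The log2 difference from the GFP control was 2.81 (SE 0.41), a 7.02-fold difference, in ND13, 0.48 (SE 0.41) in NA10 and 1.28 (SE 0.41) in ND13(N51S). ND13 was above ND13(N51S) by 1.53 and above NA10 by 2.34 on the log2 scale. Within the replicate numbers, ND13 was above the GFP control by 4.11, 1.28 and 3.05. The difference stayed between 2.45 and 3.22 when single arrays were left out, with 2.45 without GFP control 1.

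A second probe set for Hba-a1 and Hba-a2, annotated to the same transcript as the first and so no independent gene, also had its highest signals in ND13. Its signals were 690.4, 335 and 450.2 in ND13, 86.0, 52.2 and 108 in NA10, 149, 115 and 26.9 in ND13(N51S), and 114, 37.6 and 18.6 in the GFP control. ND13 lay above the GFP control without overlap, by 3.45 on the log2 scale (SE 0.69, limma adjusted p = 0.114). With the replicate number as a block in limma the adjusted p was 0.0339, and over 20 alternatives the adjusted p ran from 0.0339 to 0.968. The first probe set was chosen with results of these arrays known, so these p-values give it no separate support. The other 3 adult alpha-globin probe sets overlapped between ND13 and the GFP control. Another probe set for both genes was above background in 1 of 12 arrays, ND13 1. The probe set of Hba-a2 alone had 59.3, 49.997 and 365 in ND13 and 70.3, 55.3 and 230 in the GFP control, with array 3 highest in every group. The probe set of Hba-a1 alone was above background in 6 of 12 arrays, with 92.6, 38.1 and 55.9 in ND13 and 81.4, 37.6 and 6.05 in the GFP control.

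The beta-globin probe set that was above background in all 12 arrays had its highest signals in NA10 cells. This probe set, annotated to Hbb-bs, Hbb-bt, Hbb-b1 and Hbb-b2, which it does not separate, had signals of 1808, 3468 and 3606 in ND13, 5633, 7919 and 9842 in NA10, 2062, 3469.5 and 3879 in ND13(N51S) and 1318, 3244 and 3351 in the GFP control. All NA10 arrays lay above all other arrays, while ND13 and ND13(N51S) overlapped the GFP control. The difference of NA10 from the GFP control was 1.65 on the log2 scale (SE 0.38, limma adjusted p = 0.418). With the block it passed (adjusted p = 0.00117), over 21 alternatives the adjusted p ran from 0.00117 to 0.998, and the difference was 2.10, 1.29 and 1.55 within the replicate numbers. ND13 was below NA10 by 1.43 for this probe set (limma adjusted p = 0.846, or 0.00217 with the block, and up to 0.999967 over the alternatives), a comparison added after the data were seen. Without GFP control 1 and ND13(N51S) 2 together, the difference of NA10 from the GFP control was 1.205 (adjusted p = 0.75). The probe sets of Hbb-b2 alone were dim and differed in pattern. One, above background in 3 of 12 arrays, had 49.9, 27.7 and 11.1 in ND13, 32.0, 55.9 and 6.91 in NA10, 48.3, 70.0 and 49.9 in ND13(N51S) and 12.1, 11.5 and 13.8 in the GFP control, so that ND13(N51S) was at least 1.70-fold higher than the GFP control (2 of 3 arrays above background), by a bound that sets the control at its background. The other was above background in 1 of 12 arrays, of NA10. Summed signals of megakaryocyte genes, given with Gata1 and mostly those of Pf4, were also higher than in the GFP control without overlap in all 3 fusions. The part of these genes in the globin signals was not tested.

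**Figure D1:**
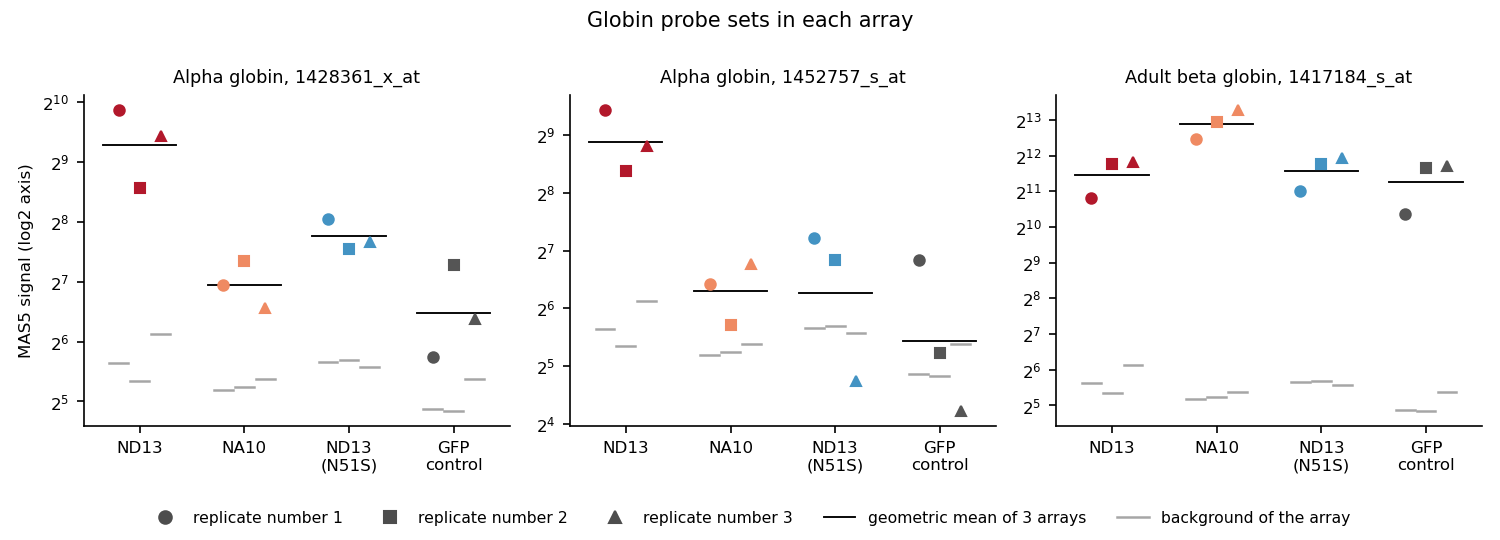
MAS5 signal on a log2 axis of 2 alpha-globin probe sets and 1 adult beta-globin probe set in each of the 12 arrays, with symbols for the replicate number, black lines for geometric means of 3 arrays and grey marks for the background of each array. The ND13 arrays lie highest for alpha globin (378 to 928 in the member probe set) and the NA10 arrays for beta globin (5633 to 9842).

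Of the 3 transcription factors, Gata1 had its highest signals in ND13(N51S) cells and Klf1 and Nfe2 overlapped among all groups. Gata1 had signals of 107, 100.3 and 128 in ND13, 132, 131 and 130.2 in NA10, 162, 294 and 166 in ND13(N51S) and 116, 135 and 109 in the GFP control. All ND13(N51S) arrays lay above every array of the other groups, with the highest value in array 2. The difference of ND13(N51S) from the GFP control was 0.74 (SE 0.29) on the log2 scale and 0.45 without ND13(N51S) 2. ND13 and NA10 differed from the GFP control by -0.10 and 0.13 (SE 0.29 each). Marker genes of mast cells and basophils, cells which also use Gata1, had a summed signal of 3902 to 5417 in ND13, 3868 to 6779 in NA10, 5931 to 10374 in ND13(N51S) and 2812 to 5396 in the GFP control, over 12 genes of which none was without an array above background. The sum over 10 megakaryocyte genes was 6078 to 7663 in ND13, 7301 to 7886 in NA10, 6119 to 9505 in ND13(N51S) and 3395 to 5495 in the GFP control, with Itgb3 above background in no array. All 3 fusions thus lay above the GFP control in this sum, while the Gata1 signals of ND13 and NA10 overlapped those of the GFP control. Most of the sum was Pf4. Pf4 had 4149 to 5003 in ND13, 5084 to 5500 in NA10, 3876 to 6531 in ND13(N51S) and 2017 to 3429 in the GFP control. Of the 11 megakaryocyte probe sets, 3, 5 and 3 lay above the GFP control without overlap in ND13, NA10 and ND13(N51S), and none below. Of all probe sets, 12.2%, 10.8% and 12% did not overlap, in either direction. The part of the mast cell, basophil and megakaryocyte genes in the Gata1 signal was not tested.

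Klf1 had signals of 136, 104 and 71.8 in ND13, 72.2, 132 and 124 in NA10, 169.6, 156 and 118 in ND13(N51S) and 89.5, 126 and 156 in the GFP control. Its log2 differences from the GFP control were -0.26 in ND13, -0.19 in NA10 and 0.28 in ND13(N51S), with an SE of 0.36 each. Nfe2 had signals of 816, 1322 and 1418 in ND13, 1173, 1361 and 1839 in NA10, 794, 1012 and 1556 in ND13(N51S) and 630.3, 1270.0 and 1487 in the GFP control. In each group the array numbered 1 was the lowest, and the differences from the GFP control were 0.12 in ND13, 0.43 in NA10 and 0.02 in ND13(N51S) (SE 0.35 each, or 0.17 with the replicate block). Within the replicate numbers NA10 was above the GFP control in 3 of 3, by 0.90, 0.10 and 0.31, and above ND13(N51S) in 3 of 3, by 0.56, 0.43 and 0.24. Without GFP control 1 the differences from the GFP control were -0.25 in ND13, 0.06 in NA10 and -0.35 in ND13(N51S).

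**Figure D2:**
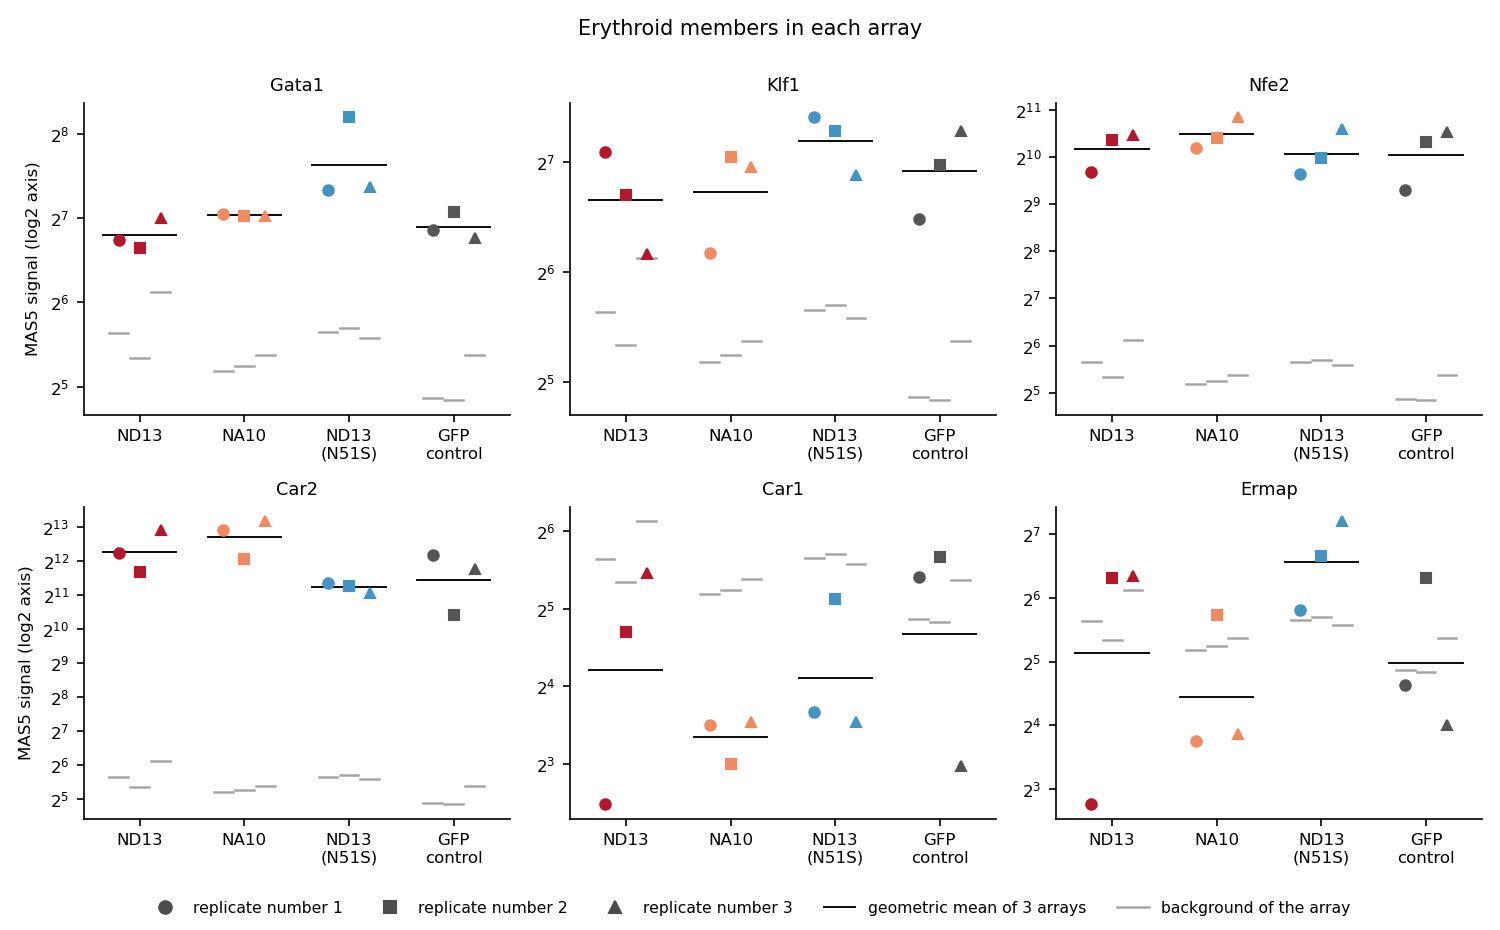
MAS5 signal on a log2 axis of Gata1, Klf1, Nfe2, Car2, Car1 and Ermap in each of the 12 arrays, with symbols for the replicate number, black lines for geometric means and grey marks for background. Gata1 is highest in the ND13(N51S) arrays (162 to 294), Car2 is higher in ND13 and NA10 than in ND13(N51S), and most Car1 values lie below background.

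Car2, which makes bicarbonate from carbon dioxide in red cells and in other blood cells, had higher signals with ND13 and NA10 than with ND13(N51S). Its probe set had signals of 4811, 3279 and 7659.5 in ND13, 7665, 4303 and 9229 in NA10, 2595, 2455 and 2134 in ND13(N51S) and 4609, 1355 and 3489 in the GFP control. The ND13 and NA10 arrays all lay above the ND13(N51S) arrays, NA10 overlapped the GFP control through GFP control 1 alone, and ND13 through GFP control 1 and 3. On the log2 scale ND13 was above ND13(N51S) by 1.05 and NA10 by 1.49, and above the GFP control by 0.82 and 1.27 (SE 0.42 each). Within the replicate numbers both fusions were above the GFP control in 3 of 3, by 0.06, 1.27 and 1.13 in ND13 and by 0.73, 1.67 and 1.40 in NA10. ND13(N51S) differed from the GFP control by -0.23, and by 0.13 without GFP control 1. The summed signal of 10 stem and progenitor genes was 9339 to 9564 in ND13, 11051 to 12897 in NA10, 9524 to 10919 in ND13(N51S) and 8165 to 10299 in the GFP control, and its part in Car2 was not tested.

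Car1 was above background in 2 of 12 arrays, both of the GFP control. Its signals were 5.59, 26.1 and 44.0 in ND13, 11.4, 8.01 and 11.6 in NA10, 12.8, 34.8 and 11.6 in ND13(N51S) and 42.3, 50.6 and 7.87 in the GFP control. No fold change is given for it, since every fusion array lay below background. Alas2, the enzyme of the first step of heme synthesis in red cells, was not above background in any array, with signals between 3.33 and 18.7. Ermap was above background in 7 arrays, 3 of them of ND13(N51S). Its signals were 6.76, 79.7 and 80.9 in ND13, 13.4, 52.9 and 14.5 in NA10, 56.1, 101 and 147 in ND13(N51S) and 24.8, 79.3 and 16.1 in the GFP control. NA10 and ND13(N51S) did not overlap for Ermap, and the other pairs did.

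Tfrc was measured by 6 probe sets, and they disagreed in ND13(N51S). The probe set with the highest mean signal had signals of 4526, 4563 and 4741 in ND13, 4129, 4270.0 and 4347 in NA10, 4666, 6490.0 and 5013 in ND13(N51S) and 5436, 5002 and 5119 in the GFP control. ND13 and NA10 lay below the GFP control without overlap, by 0.17 and 0.29 on the log2 scale (SE 0.14 each), and ND13(N51S) overlapped it, with a difference of 0.04, or -0.10 without ND13(N51S) 2. A second, of a kind (suffix a) that matches several transcripts of a gene, had signals of 377, 449 and 381 in ND13, 274, 470.0 and 303 in NA10, 239, 160.1 and 278 in ND13(N51S) and 504, 383 and 361 in the GFP control. ND13(N51S) lay below the GFP control by 0.91 (SE 0.27), and by 0.68 without ND13(N51S) 2. Within the replicate numbers ND13(N51S) differed from the GFP control by -1.08, -1.26 and -0.38. Another of that kind had signals of 342, 138 and 122 in ND13, 191, 197 and 116 in NA10, 70.6, 29.7 and 113 in ND13(N51S) and 315, 159.6 and 115 in the GFP control. ND13(N51S) lay below the GFP control by 1.54 (SE 0.54), and by 1.01 without its array 2. The differences within the replicate numbers were -2.16, -2.43 and -0.03, so that array 3 was close to its GFP control array. The control probe set of the middle of the transcript was not above background in any ND13(N51S) array (5.51 to 39.6) and above it in all 3 GFP control arrays (45.4 to 96.9), so that ND13(N51S) was at least 1.502-fold lower in this bound, which sets its arrays at their background. The 3′ control probe set was above background in all 12 arrays, with 98.2 to 126 in ND13(N51S) and 114 to 189 in the GFP control. The 5′ control probe set had 7.12 to 52.0 in ND13(N51S) and 47.9 to 99.1 in the GFP control.

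**Figure D3:**
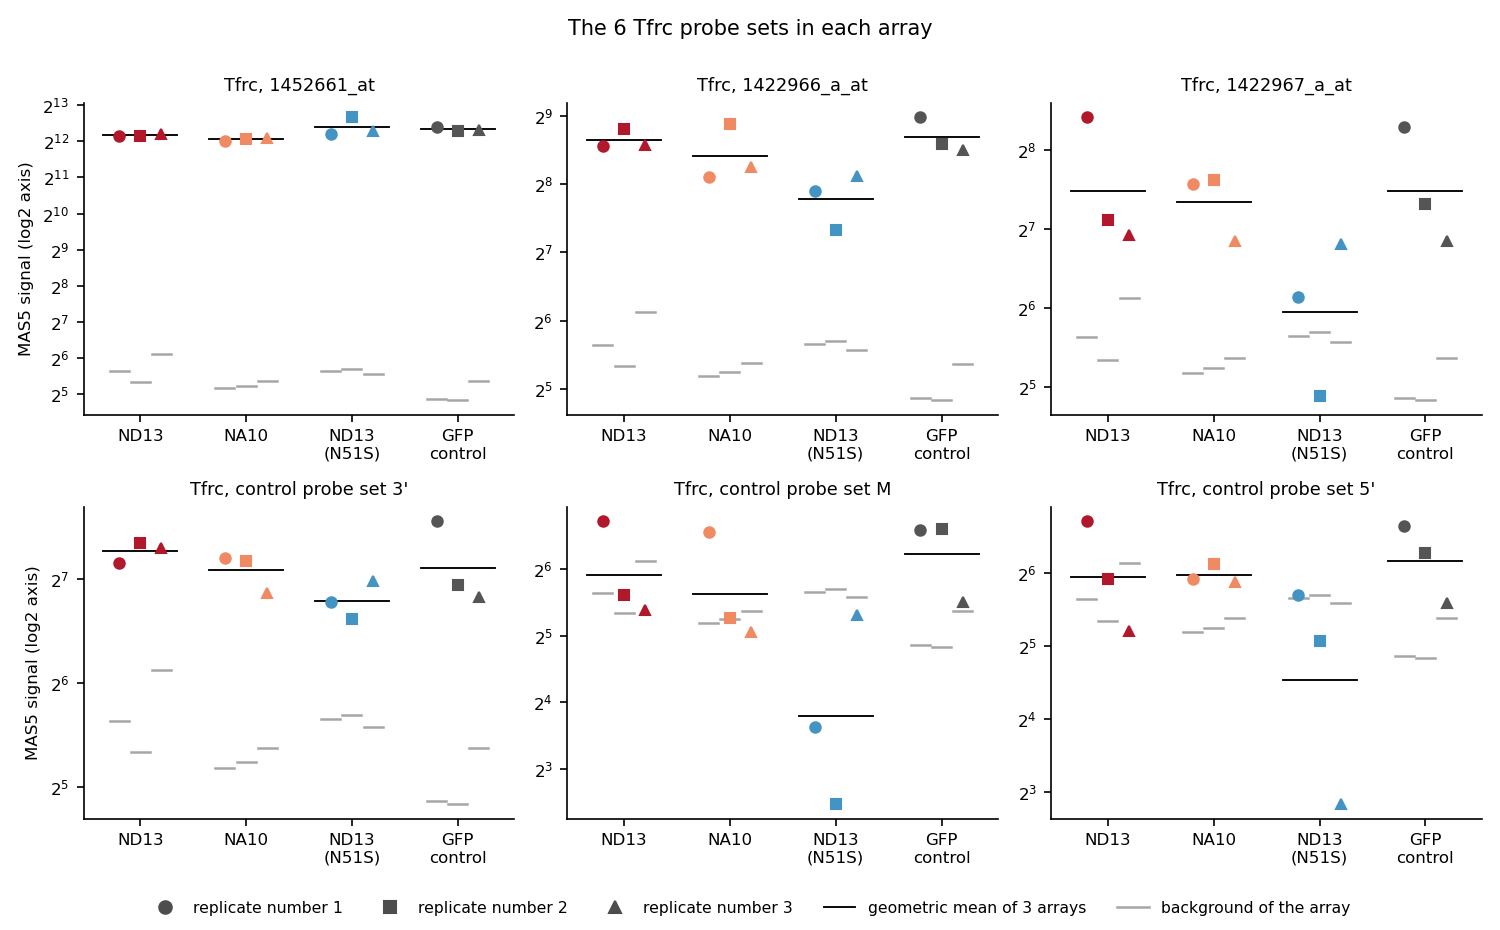
MAS5 signal on a log2 axis of the 6 Tfrc probe sets in each array, in the same layout as the plots of the other members. ND13(N51S) 1 and 2 are low in both probe sets of suffix a and in the middle control probe set, where ND13(N51S) 3 lies nearer the other groups. The ND13(N51S) arrays overlap the GFP control in the probe set with the highest mean signal (4666 to 6490.0 in ND13(N51S)).

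Counted over the 11 fitted probe sets, 1 member (the alpha-globin probe set) was called higher in ND13 than in the GFP control by limma at an adjusted p below 0.05 and a 1.5-fold difference, where 0.0884% of all probe sets were called. It was not called without ND13 1, ND13 3, GFP control 1 or GFP control 3, at fold differences that stayed above 1.5-fold. As the members were chosen with results of these arrays known, this call is a description and not a test. No member was called in the other 6 comparisons, where the background was 0.0133% for NA10 and 0% for ND13(N51S) against the GFP control, 0.0133% for ND13 and 0.00884% for NA10 against ND13(N51S), 0.0354% for ND13 and NA10 together against the GFP control and ND13(N51S) together and 0.0177% for ND13 against NA10. The members whose arrays did not overlap between groups numbered 2, 1, 4, 5, 6, 0 and 3 in these comparisons, in the order given, against 12.2%, 10.8%, 12%, 12.3%, 13.7%, 0.605% and 9.4% of all probe sets. Their directions were mixed, with 2 higher (alpha globin and Gata1) and 2 lower (both Tfrc probe sets of suffix a) in ND13(N51S) than in the GFP control. At an unadjusted p below 0.05, 1, 1, 4, 5, 5, 3 and 1 members passed in the same order, against 5.73%, 4.41%, 7.65%, 7.87%, 8.6%, 7.99% and 3.52% of all probe sets. The median log2 difference of the members from the GFP control was -0.0038 in ND13, -0.14 in NA10 and 0.04 in ND13(N51S), and that of all probe sets was 0.00, -0.01 and 0.07.

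**Figure D4:**
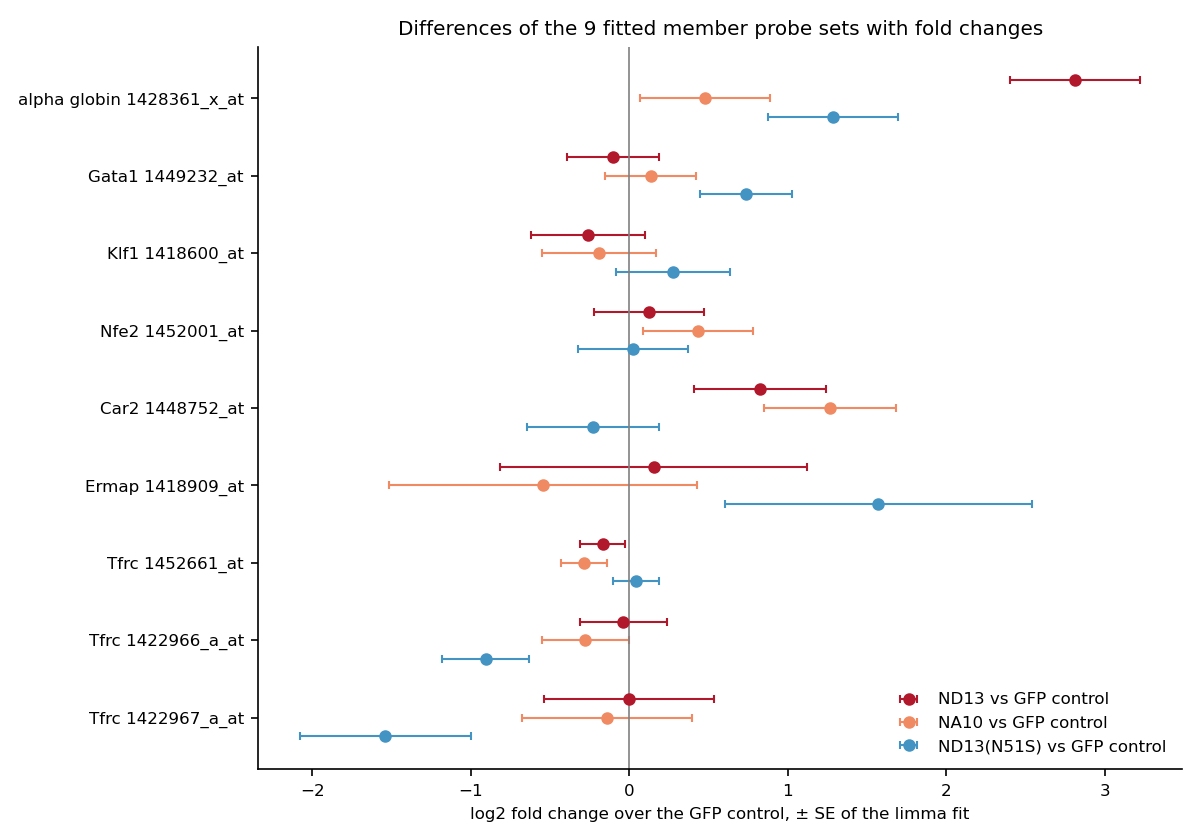
Log2 difference from the GFP control with the SE of the limma fit for 9 of the 11 fitted member probe sets (Car1 and Alas2, below background, left out), in red for ND13, orange for NA10 and blue for ND13(N51S). The difference of 2.81 for alpha globin in ND13 lies apart from the others, and in ND13(N51S) both Tfrc probe sets of suffix a lie below 0 (-0.91 and -1.54) while the other lies near 0 (0.04).

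The 4 lists of other erythroid genes held 93 probe sets for 55 gene entries. None was called against the GFP control in ND13, NA10 or ND13(N51S), where 0.0884%, 0.0133% and 0% of all probe sets were called. An unadjusted p below 0.05 in the limma fit was met by 9 of the 93 in ND13, 8 in NA10 and 9 in ND13(N51S). Of all probe sets, 5.73%, 4.41% and 7.65% met it. With the replicate block, 1 probe set was called in ND13 (the second alpha-globin probe set), where 0.296% of all were, 1 in NA10 (the beta-globin probe set), where 0.0398% were, and 1 in ND13 against NA10 (beta globin again), where 0.0398% were. A group compared had no array above background in 29, 25 and 26 of the 93 for ND13, NA10 and ND13(N51S), so their fitted differences, which the list medians include, are not measured on both sides. The 14 globin probe sets, of which 10, 9 and 9 were in that state, had medians of 0.22, 0.27 and 0.33 in ND13, NA10 and ND13(N51S), and the embryonic gene Hbb-y was above background in no array. Among the 22 probe sets of erythroid regulators, Zfpm1 (FOG-1, a partner of Gata1) had signals of 284, 169 and 178 in ND13, 248, 217 and 264 in NA10, 219, 259 and 213 in ND13(N51S) and 160.3, 109.9 and 103 in the GFP control. All 9 fusion arrays lay above the 3 GFP control arrays, with differences of 0.75, 0.99 and 0.91 on the log2 scale in ND13, NA10 and ND13(N51S) (SE 0.27, limma adjusted p = 0.711, 0.713 and 0.48). Lmo2, an adaptor of the erythroid Gata1 complex, differed by 0.05, 0.15 and -0.07 in ND13, NA10 and ND13(N51S), and Myb, a factor of progenitors, by -0.37, -0.19 and 0.12, while the other Myb probe sets differed by -0.62, -0.51 and -0.70 and by -0.36, -0.24 and 0.09. For Bach1, a repressor of globin and heme genes, both probe sets were above background in all arrays and disagreed in ND13(N51S). One differed by 0.23, 0.09 and 0.53 in ND13, NA10 and ND13(N51S) (SE 0.31), the last being 0.20 without ND13(N51S) 2, and the other by 0.40, 0.16 and -0.86 (SE 0.43), the last being -0.37 without that array. Trim10, a protein of erythroid cells, differed by -0.94 in NA10 (SE 0.53), where NA10 2 had 16.8 and the other 2 NA10 arrays 86.6 and 90.3. Ldb1, the partner of Lmo2, and 1 probe set of Bcl11a, a repressor of embryonic globin, differed by -1.25 and -1.201 in ND13(N51S), but ND13(N51S) 2 alone was low, with 13.0 and 3.88, and without it the differences were 0.36 and 0.55. The other Bcl11a probe set differed by 0.23 in ND13(N51S).

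The 26 probe sets of heme synthesis and iron had medians of -0.12, -0.02 and 0.00 in ND13, NA10 and ND13(N51S). For Fech, which puts iron into heme, the probe set with the highest mean signal had a log2 difference of 0.68 in ND13, 0.17 in NA10 and 0.82 in ND13(N51S) (SE 0.26, limma adjusted p = 0.751, 0.9999 and 0.515). The other 2 Fech probe sets above background in all arrays did not show this, with 0.00, -0.10 and -0.09 (SE 0.30) in one and -0.09, -0.20 and -0.03 (SE 0.24) in the other. For Tfr2, a transferrin receptor of erythroid and liver cells, the probe set with the highest mean signal had signals of 316, 573 and 431 in ND13 and 788, 1340 and 733 in the GFP control, a difference of -1.10 (SE 0.38, limma adjusted p = 0.663) without overlap of the arrays, and the other had a difference of -0.44 (SE 0.26) with overlap. Alad, the enzyme of the second step of heme synthesis, differed by -0.43, -0.02 and -0.33 in ND13, NA10 and ND13(N51S) (SE 0.26), the last being -0.08 without ND13(N51S) 2. For Steap3, a ferric reductase of erythroid endosomes, the probe sets disagreed, with -1.02, -0.85 and -0.35 (SE 0.62) in ND13, NA10 and ND13(N51S) in one and 0.14, 0.29 and 0.32 (SE 0.39) in another, above background in all arrays. Abcb10, a mitochondrial transporter of erythroid cells, had 2 probe sets above background in all arrays, which differed by -0.03, -0.22 and -0.03 in ND13, NA10 and ND13(N51S) (SE 0.27) and by 0.24, 0.29 and 0.13 (SE 0.37). A dim Abcb10 probe set, not above background in the GFP control, was at least 1.31-fold higher in ND13 (2 of 3 arrays above background), 2.11-fold in NA10 (3 of 3) and 1.26-fold in ND13(N51S) (1 of 3), by the same bound as for Hbb-b2. The 31 probe sets of the membrane and cytoplasm had medians of 0.03, 0.14 and 0.39. Hemgn, a nuclear protein of blood progenitors, had 453.5, 700.3 and 478 in ND13 and 678, 1212 and 1416 in the GFP control, a difference of -0.98 (SE 0.31, limma adjusted p = 0.537) with overlap of the arrays. NA10 had 571, 830 and 812 and ND13(N51S) 692, 1248 and 828 for Hemgn, both also overlapping the GFP control. Rhag, an ammonium channel of the red cell, was not above background in the GFP control and was at least 2.15-fold higher in ND13 (2 of 3 arrays above background) and 1.40-fold higher in NA10 (3 of 3) by the same bound. ND13(N51S) had 7.27, 68.6 and 53.5, also with 2 of 3 arrays above background, but the bound did not place it above the GFP control. Prdx2, a peroxidase abundant in red cells, differed by -0.01, 0.01 and 0.12 in ND13, NA10 and ND13(N51S) (SE 0.16), and by -0.27, 0.12 and -0.25 (SE 0.29) in a second probe set. Kel, a blood group protein, was above background in 6 of 12 arrays, with 83.9, 137 and 22.5 in ND13(N51S), 2 of 3 above background, and 17.5, 62.0 and 11.3 in the GFP control, 1 of 3 above background. Ank1, the ankyrin of the red cell skeleton, had 313, 426 and 264 in ND13(N51S) and 117, 140.3 and 169.8 in the GFP control, a difference of 1.22 (SE 0.26, limma adjusted p = 0.267). Its highest value was that of ND13(N51S) 2, and the other ND13(N51S) arrays also lay above the GFP control. ND13 had 191, 168 and 215 and NA10 185, 198 and 162, both overlapping the GFP control. Slc14a1, the urea transporter, had 140.3, 165 and 312 in NA10 and 47.9, 55.0 and 114 in the GFP control, a difference of 1.53 (SE 0.42, limma adjusted p = 0.713). In this probe set ND13(N51S) had 129.6, 128.3 and 172, also above the GFP control without overlap. ND13 had 53.4, 90.0 and 97.1 there, with overlap. The other Slc14a1 probe set had a difference of 0.84 (SE 0.55) in NA10. Epb42 and Tspo2 were above background in no array.

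**Figure D5:**
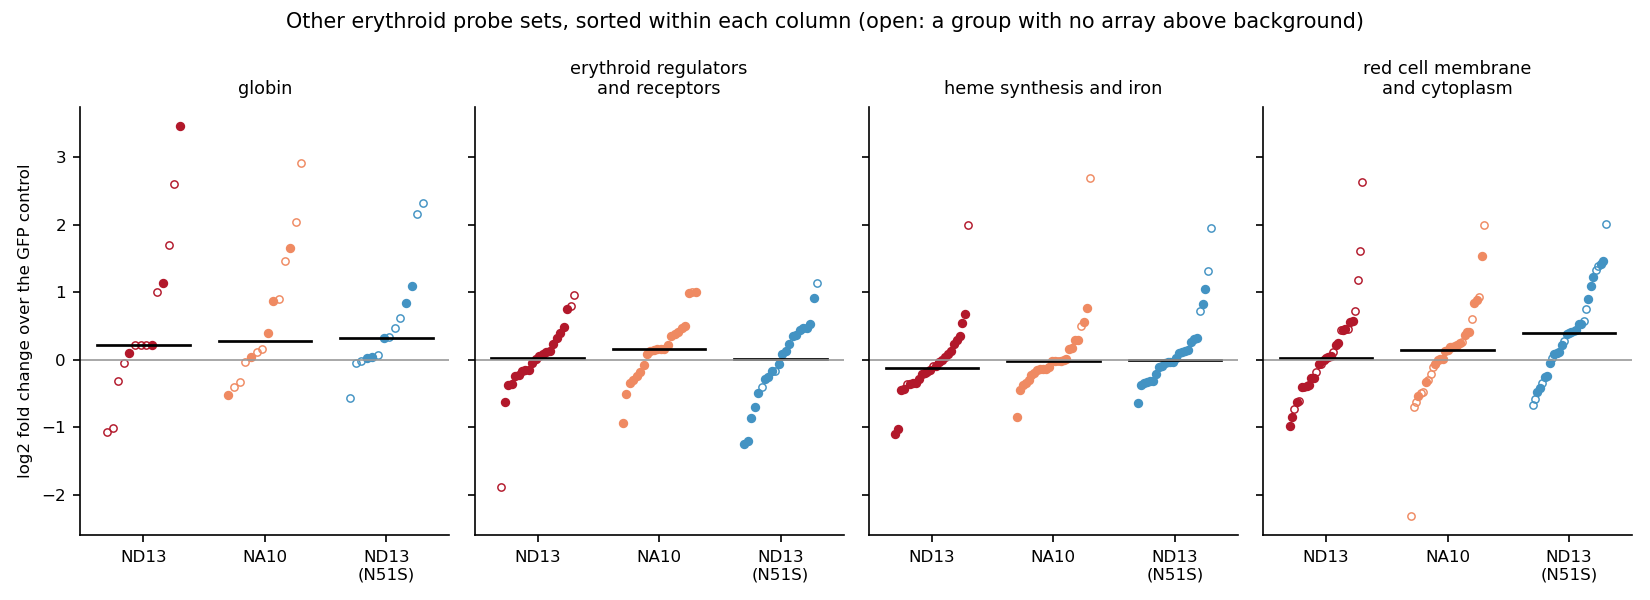
Log2 differences from the GFP control of the 93 other erythroid probe sets in 4 lists, sorted within each column, with black lines at the medians and open circles where a group compared had no array above background. The medians lie between -0.12 and 0.39, and the highest filled circle is the second alpha-globin probe set in ND13 (3.45).

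The probe sets whose pattern over the 12 arrays was most like that of the member alpha-globin probe set, by Pearson's r among 10368 probe sets, were those of Meg3 (0.91), Mgst1 (0.88), Lsp1 (0.87), Bcl2l11 (0.86) and Emp1 (0.86). The 10368 were annotated to 1 gene each, had a mean log2 signal above the median and left out the members. Probe sets annotated to several genes, such as the second alpha-globin and the bright beta-globin probe set, were therefore not ranked. These correlations describe 12 arrays of 4 groups, which share the group differences and the replicate numbers, and carry no test. Those most like Gata1 were Cks2 (0.91), Trim32 (0.90), Mt2 (0.89), Arid1a (0.89) and Gata2 (0.88), which fell to between 0.52 and 0.79 without ND13(N51S) 2. Those most like Klf1 were Sync (0.85), Capn15 (0.84), Lpp (0.82), Gm11944 (0.82) and Fibp (0.82). None are given for Car1, which was below background in 10 of 12 arrays.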

How the data were processed

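RNA of Sca-1+ Lin- GFP+ cells was hybridised to 12 MOE430A arrays, 3 for each of 4 groups taken from the sample titles. The authors deposited MAS5 signal intensities, per the labels from 100 ng of RNA (the records deposited for NA10 1 and GFP control 1 give 50 ng), with trimmed means of 500.16 to 500.19. The genome build is not given in the sources used here, and GC-RMA values were not used here. Values below 0.01 were set to that floor, and log2 signals were fitted with limma 3.58.1 in R 4.3.3 (lmFit, eBayes with trend and robust) over 4 groups and 22626 probe sets, 64 control probe sets left out. A call needed a Benjamini-Hochberg adjusted p < 0.05 and 1.5-fold. Means ± SD are on the signal scale. "At least" bounds set dim arrays at their background.

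Members and lists were chosen with earlier results of these data known. Named genes were all members and, of the erythroid lists, the 3 brightest probe sets and the 2 with the largest difference per comparison among those above background in at least 6 arrays, plus Ank1, chosen after its values were seen. Outside this rule, some other probe sets of these genes and the dim genes Hbb-b2, Hba-x, Hbb-bh1, Hbb-y, Epb42 and Tspo2 were also given. Deviations from group means correlated at 0.106 to 0.596 between arrays of the same number (18 pairs, probe sets above the median) and -0.422 to 0.107 between different numbers (36 pairs). The fit was tested on simulated data. The alternatives changed the filter (dim probe sets removed), the pseudocount, the scaling (quantiles or array medians), the fit (eBayes without trend, only the arrays compared, the methods' t-test, the replicate block) and the arrays (each left out in turn, and GFP control 1 with ND13(N51S) 2, chosen after seeing the data). Plots used Python 3.11.15 and matplotlib 3.10.9. The p-values set differences between groups against the spread between these arrays.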

Additional observations from a re-analysis of the deposited data

How the results depend on the processing

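Of 21 alternatives in 7 comparisons, the count of called members changed only for ND13 against the GFP control, where 1 member was called. It was 0 with plain eBayes, with the compared groups only, with the methods' t-test, and without GFP control 1 and ND13(N51S) 2 together, and 0 to 1 when single arrays were left out (0 without ND13 1, ND13 3, GFP control 1 or GFP control 3). The log2 difference of the member alpha-globin probe set there lay between 2.45 and 3.22 when single arrays were left out. For the other erythroid probe sets, none called became 1 called in ND13 against the GFP control with the pseudocount and with the replicate block, and 0 to 1 when arrays were left out. It became 1 with the replicate block in NA10 against the GFP control, NA10 against ND13(N51S), both active fusions against both controls, and ND13 against NA10. Of all 22626 probe sets, the block called 9 higher and 1 lower in NA10 against ND13(N51S). It called 20 higher and 3 lower in both active fusions against both controls. Shares over all probe sets are not given here for the pseudocount or for arrays left out. With the block, no member call was lost. The methods' t-test after adjustment called none in any comparison. Of 1589 values of single members under alternatives, 1574 moved by less than the spread between arrays and 15 moved further. The sign changed in 51 of them, over 17 of 77 member differences, none of them called and none larger than 0.54 on the log2 scale, and the called difference kept its sign. The 15 concerned Gata1, Alas2 and Tfrc in comparisons with ND13(N51S). Median centring moved the median of all probe sets by -0.11 on the log2 scale in ND13(N51S) against the GFP control. Depth is not given by these arrays, and their number limits the precision.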
